A study of Homo sapiens with 6 samples.

Results

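The genes described here are CDKN1A, GDF15 and 8 other targets of the transcription factor p53: MDM2, BBC3, BAX, FAS, TNFRSF10B, SESN1, ZMAT3 and TP53I3. They were chosen by name, and each of the 10 symbols matched 1 of the 30178 Ensembl gene IDs of the deposited table. RNA sequencing had measured CAL27, an established tongue carcinoma cell line that the labels call oral adenosquamous, in 6 libraries. All 6 came from stable lines grown in DMEM with serum and the selection drug G418, and the labels describe the expressed proteins as GFP fusions. The groups were a line with the empty vector, a line that constitutively expressed wild-type MB21D2 and a line that constitutively expressed the Q311E form, with 2 libraries (A and B) each. MB21D2 is a relative of the DNA sensor cGAS, and Q311E denotes a glutamine replaced by a glutamate. The labels do not say whether a line was 1 clone or a pool, nor whether A and B were separate cultures. The p-values therefore measure the spread between these libraries, which may be technical. The series compares the transcriptomes of cells with the Q311E and the wild-type form, in the setting of head and neck squamous carcinoma.

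The protein p53 is kept low by MDM2, a ubiquitin ligase that p53 itself induces, and it accumulates after DNA damage and other stress. It then binds response elements in DNA and raises the transcription of genes that halt the cell cycle, start apoptosis, repair DNA or adjust metabolism. Squamous cells also express the family member p63, which recognises related elements. Several of the genes answer to other inputs as well: CDKN1A to TGF-beta and to Sp1-type factors at its proximal promoter, and GDF15, BBC3 and TNFRSF10B to the stress factors ATF4 and CHOP.

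The RefSeq start regions of these genes (GRCh38.p14) are shown because the members that share the p53 label differed in their response. RefSeq windows from 250 bases before to 50 after a start were found for 9 of the 10 genes, TNFRSF10B being the one without. They were searched for the 20-base p53 response element, 2 half-sites of 10 bases in a row, with the 4 fixed C and G bases intact and at most 3 mismatches elsewhere. This limit was chosen after the matches had been seen, and the element reads alike on both strands. It was found near a start of 4 of the 9 members, and near a start of 1.366% of all 27305 genes with a window. The 9 members had 17 windows and the 27305 genes 35116, so these shares do not rest on the same number of windows per gene. The matches follow 5′ to 3′ on the gene's strand, with the core of each half-site in capitals.
FAS (chr10:88991309-88991328, intron, + strand): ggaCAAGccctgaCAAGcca
MDM2 (chr12:68808923-68808942, intron, + strand): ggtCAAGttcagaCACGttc
SESN1 (chr6:109009018-109009037, intron, - strand): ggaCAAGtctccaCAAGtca
GDF15 (chr19:18386186-18386205, exon, + strand): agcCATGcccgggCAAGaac
The FAS and MDM2 elements had 2 mismatches each, and those of SESN1 and GDF15 had 3. Their places relative to the RefSeq start were -122, -94 and -49 bases for FAS, MDM2 and SESN1, and base 29 of the transcript for GDF15. Annotation is that of GENCODE 29, in which the first 3 lie outside any exon of their gene. No match in a window says only that these letters are not within it.

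CDKN1A and GDF15 differed most between the lines, so the 250 bases before their starts are given whole. Capitals mark the Sp1-type GC box, GGGCGG on either strand, and for GDF15 also the TATA motif TATAAA.
CDKN1A (chr6:36678464-36678713, + strand): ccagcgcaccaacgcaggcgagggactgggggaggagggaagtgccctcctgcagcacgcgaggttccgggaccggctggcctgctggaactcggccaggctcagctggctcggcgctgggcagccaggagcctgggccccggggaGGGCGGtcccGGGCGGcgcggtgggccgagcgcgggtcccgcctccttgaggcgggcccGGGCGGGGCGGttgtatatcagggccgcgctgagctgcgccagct
GDF15 (chr19:18385908-18386157, + strand): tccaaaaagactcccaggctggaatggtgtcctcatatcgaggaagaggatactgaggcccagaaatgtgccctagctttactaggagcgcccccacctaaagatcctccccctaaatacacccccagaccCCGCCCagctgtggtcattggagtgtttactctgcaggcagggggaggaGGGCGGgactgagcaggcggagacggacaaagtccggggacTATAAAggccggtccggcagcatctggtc
CDKN1A held 4 GC boxes and GDF15 held 2. At least 1 GC box stood in 42.6% of the windows of all genes over the same 250 bases, and 4 or more in 7.63%. The TATA motif of GDF15 began 29 bases before its start. That motif or TATATA was present in 9.51% of windows.

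The deposited unit was FPKM, which divides a gene's reads by its length and by the depth of the library. Library totals, recovered from the steps of the FPKM values, lay between 20645410 and 24147306 reads. The members rested on 60 to 3847 reads per library, and all 10 had a mean FPKM of at least 1. The introduced gene followed the labels: MB21D2 averaged 7.73 FPKM with the empty vector, 105 with the wild-type construct and 27.0 with the Q311E construct. The form of the protein and its amount therefore cannot be told apart between the expressing lines. The SD of the log2 difference between libraries A and B was 0.192 in the vector pair, 0.145 in the wild-type pair and 0.436 in the Q311E pair. The wild-type pair still differed by more than counting noise, with a median chi-square of 0.918 per gene against 0.455 for counting alone. Of 8 squamous and epithelial markers, KRT5 (405 to 579 FPKM), CDH1 (58.4 to 75.0) and EPCAM were expressed in all 6 libraries, but the lines differed in others. Against the vector 5 of them fell and 0 rose with wild type, while 3 fell and 1 rose with Q311E (limma; 6 and 0, and 3 and 2, at an unadjusted p under 0.05, and by limma-voom 5 and 0, and 3 and 1). Of all genes tested, 8.76% fell and 3.54% rose with wild type, and 9.28% fell and 8.67% rose with Q311E. KRT14 averaged 729.4 FPKM with the vector, 2.21 with wild type and 0.837 with Q311E, KRT6A 106.7, 8.69 and 15.8, and DSG3 4.96, 2.21 and 2.37. KRT17, the 1 that rose with Q311E, went the other way there, with 77.2, 33.35 and 120.5 FPKM in the same order. Against the vector it differed by -1.19 with wild type (limma adjusted p = 0.00469) and by 0.64 with Q311E (0.00845). The summed level of the 8 was 1652 to 1712 in the vector, 698.7 to 708.8 in the wild-type and 850.0 to 940.4 in the Q311E libraries, and its part in the results was not tested. Of 7 markers of other cell types, PTPRC, the pan-leukocyte gene, stood at 0 to 0.005 FPKM, while the endothelial cadherin CDH5 stood at 15.4 to 35.2 FPKM. The other 5 were each at or under 1.85 FPKM. Of the 3 tested, CDH5 (0.81, limma adjusted p = 0.0376) and COL1A2 (0.63, 0.0153) were higher with Q311E than with wild type, and 0 lower. Over all genes tested 17.5% were higher and 10.1% lower there. COL1A2 alone was also higher with Q311E than with the vector (0.45, limma adjusted p = 0.0394), and 0 were lower. The summed level of these 7 markers was 22.5 to 24.2 in the vector, 17.2 to 17.7 in the wild-type and 25.8 to 38.2 in the Q311E libraries, and its part in the results was not tested.

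CDKN1A encodes p21, which binds cyclin-dependent kinases and the replication clamp PCNA and holds cells before S phase. The gene (ENSG00000124762) lies on GRCh38 chromosome 6, 36676460 to 36687339, + strand. Its level was 4.25 and 5.34 FPKM in the vector libraries, 1.998 and 2.35 in the wild-type libraries and 11.4 and 12.8 in the Q311E libraries. Both wild-type values lay under both vector values and both Q311E values over them, with no overlap between any 2 groups. CDKN1A fell 2.20-fold in the wild-type line (4.79 ± 0.768 to 2.175 ± 0.2503 FPKM, SD, n = 2). On the log2(FPKM + 1) scale of the test this was -0.86 ± 0.13 (SE, limma adjusted p = 0.0198). It rose 2.53-fold in the Q311E line, to 12.1 ± 1.02 FPKM (1.18 ± 0.13, limma adjusted p = 0.00802). Between the expressing lines it was 5.57-fold higher with Q311E (2.05 ± 0.13, limma adjusted p = 0.00228). Both comparisons with the vector use the same 2 vector libraries.

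GDF15 encodes a secreted stress cytokine of the TGF-beta superfamily, which acts on the brainstem receptor GFRAL. The gene (ENSG00000130513) lies on chromosome 19, 18374731 to 18389176, + strand. Its level was 7.02 and 12.0 FPKM in the vector libraries, 1.43 and 1.35 in the wild-type libraries and 13.7 and 28.1 in the Q311E libraries. The 3 groups did not overlap, but A and B differed by 0.70 within the vector pair and by 0.99 within the Q311E pair on the log2 scale, B being higher in both. The wild-type values rested on 68 and 60 reads, with exact Poisson 95% intervals of 52.8 to 86.2 and 45.8 to 77.2 reads that cover counting error only. GDF15 fell 6.85-fold in the wild-type line (9.51 ± 3.52 to 1.39 ± 0.0570 FPKM, SD, n = 2). The log2 difference was -2.10 ± 0.37 (SE, limma adjusted p = 0.0275). It was 15.05-fold higher in the Q311E line than in the wild-type line (20.9 ± 10.2 FPKM, 3.11 ± 0.37, limma adjusted p = 0.00784). Against the vector the Q311E difference was 1.02 ± 0.37 and did not pass (limma adjusted p = 0.118). Without Q311E A it was 1.51 and passed (limma adjusted p = 0.00666), and without Q311E B it was 0.52 and did not (limma adjusted p = 0.173). By limma-voom on recovered reads the fall in the wild-type line missed the threshold (-2.70, adjusted p = 0.0579).

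**Figure D1:**
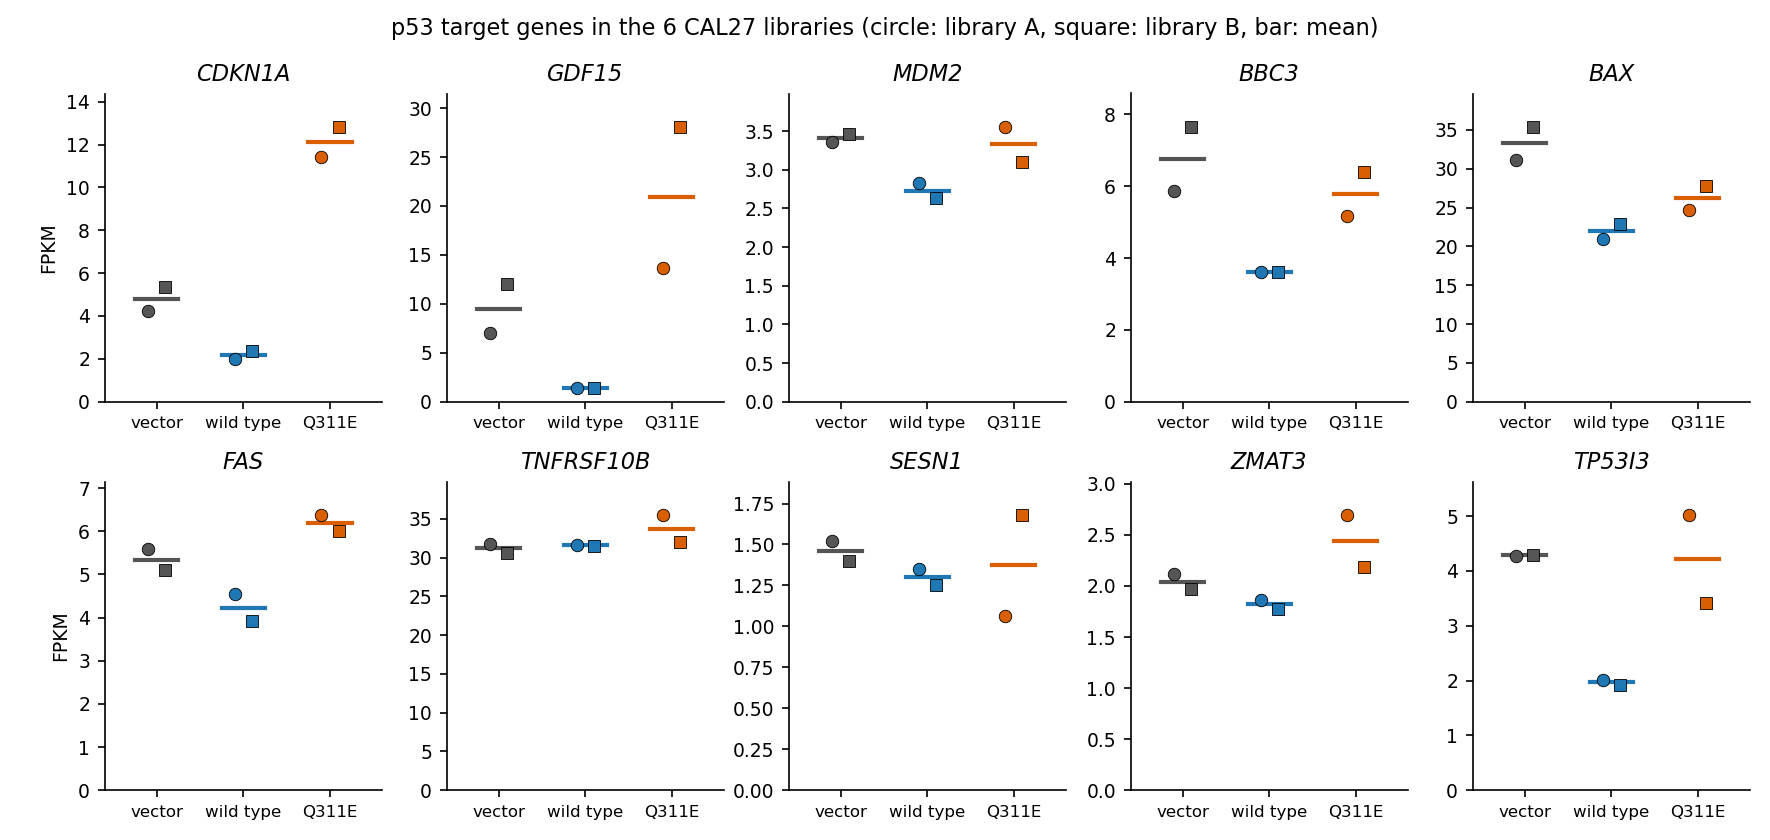
FPKM (linear axis from 0) of the 10 p53 target genes in the vector, wild-type and Q311E lines, with a circle for library A, a square for library B and a bar for their mean. CDKN1A and GDF15 are lowest in the wild-type and highest in the Q311E libraries, while TNFRSF10B stays between 30.6 and 35.5 FPKM.

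MDM2 encodes the ligase that marks p53 for destruction, and its internal promoter is a classical p53 target. The gene (ENSG00000135679) lies on chromosome 12, 68808176 to 68850686, + strand. It stood at 3.36 and 3.46 FPKM in the vector, 2.83 and 2.63 in the wild-type and 3.56 and 3.10 in the Q311E libraries. The wild-type values lay under all others, and the Q311E values reached both above and below the vector values. The log2 difference was -0.24 ± 0.10 for wild type against vector (limma adjusted p = 0.162), -0.03 ± 0.10 for Q311E against vector (0.865) and 0.21 ± 0.10 for Q311E against wild type (0.153). With the spread of the vector and wild-type pairs alone, the fall in the wild-type line passed (limma adjusted p = 0.0408).

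BBC3, also called PUMA, encodes a BH3-only protein that frees BAX and BAK1 to permeabilise mitochondria. The gene (ENSG00000105327, chromosome 19, 47220822 to 47232766, - strand) had 5.86 and 7.66 FPKM in the vector, 3.599 and 3.598 in the wild-type and 5.17 and 6.40 in the Q311E libraries. The wild-type pair lay under the other 4 libraries, and the vector and Q311E ranges overlapped. BBC3 fell 1.88-fold in the wild-type line (-0.75 ± 0.15, limma adjusted p = 0.0370) and was 1.61-fold higher with Q311E than with wild type (0.56 ± 0.15, limma adjusted p = 0.0452). Q311E against vector gave -0.19 ± 0.15 (limma adjusted p = 0.406). The difference from wild type held its call under 5 of 16 other settings, with limma adjusted p-values up to 0.207.

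BAX encodes the pore-forming protein of the mitochondrial outer membrane. The gene (ENSG00000087088, chromosome 19, 48954815 to 48961798, + strand) had 31.2 and 35.4 FPKM in the vector, 20.95 and 22.9 in the wild-type and 24.7 and 27.7 in the Q311E libraries. The 3 groups did not overlap, the Q311E libraries lying between the others. BAX fell 1.52-fold in the wild-type line (-0.58 ± 0.11, limma adjusted p = 0.0293). For Q311E against vector the difference was -0.33 ± 0.11 (limma adjusted p = 0.0853), and for Q311E against wild type 0.25 ± 0.11 (limma adjusted p = 0.133). The fall in the Q311E line passed under 2 of 16 other settings. They were A and B as a replicate block (limma adjusted p = 0.0449) and Q311E B left out.

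TP53I3, or PIG3, encodes a quinone oxidoreductase linked to reactive oxygen species in p53-driven apoptosis. The gene (ENSG00000115129, chromosome 2, 24077433 to 24085861, - strand) had 4.28 and 4.30 FPKM in the vector, 2.01 and 1.93 in the wild-type and 5.02 and 3.42 in the Q311E libraries. The wild-type pair lay far under the rest, and the Q311E pair fell on either side of the vector. TP53I3 fell 2.18-fold in the wild-type line (-0.83 ± 0.16, limma adjusted p = 0.0322). It was 2.14-fold higher with Q311E than with wild type (0.80 ± 0.16, limma adjusted p = 0.0225). Q311E against vector gave -0.04 ± 0.16 (limma adjusted p = 0.891). The difference from wild type held its call under 8 of 15 other settings, with limma adjusted p-values up to 0.151.

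FAS and TNFRSF10B encode death receptors at the cell surface, for FAS ligand and for TRAIL. FAS (ENSG00000026103, chromosome 10, 88990582 to 89015785, + strand) had 5.58 and 5.11 FPKM in the vector, 4.54 and 3.92 in the wild-type and 6.38 and 6.003 in the Q311E libraries. The groups did not overlap, and FAS was 1.46-fold higher with Q311E than with wild type (0.46 ± 0.10, limma adjusted p = 0.0275). Against the vector it differed by -0.28 ± 0.10 with wild type (limma adjusted p = 0.128) and by 0.18 ± 0.10 with Q311E (0.253). The call against wild type held under 7 of 16 other settings. It was lost without the filter (limma adjusted p = 0.0668), with equal sums (0.0649), quantile normalization (0.0509), only the 2 groups compared (0.0721), a spread for each group (0.126) and without any 1 vector or wild-type library. With the spread of the vector and wild-type pairs alone, the fall of FAS in the wild-type line passed (limma adjusted p = 0.0445).

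TNFRSF10B (ENSG00000120889, chromosome 8, 23020133 to 23069179, - strand) had 31.8 and 30.6 FPKM in the vector, 31.7 and 31.6 in the wild-type and 35.5 and 32.0 in the Q311E libraries. The vector and wild-type values overlapped, and the Q311E values lay just above. Its log2 differences were 0.02, 0.11 and 0.09 (each ± 0.08) for wild type against vector, Q311E against vector and Q311E against wild type, with limma adjusted p-values of 0.891, 0.385 and 0.433.

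SESN1 encodes a sestrin, a stress protein that restrains mTORC1 signalling, and ZMAT3 an RNA-binding protein that regulates splicing. SESN1 (ENSG00000080546, chromosome 6, 108986437 to 109094819, - strand) had 1.52 and 1.40 FPKM in the vector, 1.35 and 1.25 in the wild-type and 1.06 and 1.68 in the Q311E libraries. The Q311E values lay on both sides of the other 4. The Q311E counts were 116 and 186 reads, with exact Poisson 95% intervals of 95.9 to 139.1 and 160.2 to 214.7, so the 2 libraries differed by more than counting error. ZMAT3 (ENSG00000172667, chromosome 3, 179017223 to 179072279, - strand) had 2.12 and 1.97 FPKM in the vector, 1.87 and 1.78 in the wild-type and 2.70 and 2.19 in the Q311E libraries. Its groups stood in the order wild type, vector, Q311E without overlap. The largest differences were 0.28 ± 0.11 for ZMAT3 (Q311E against wild type, limma adjusted p = 0.114) and -0.09 ± 0.15 for SESN1 (wild type against vector, limma adjusted p = 0.694), and neither gene passed in any of the 3 comparisons.

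**Figure D2:**
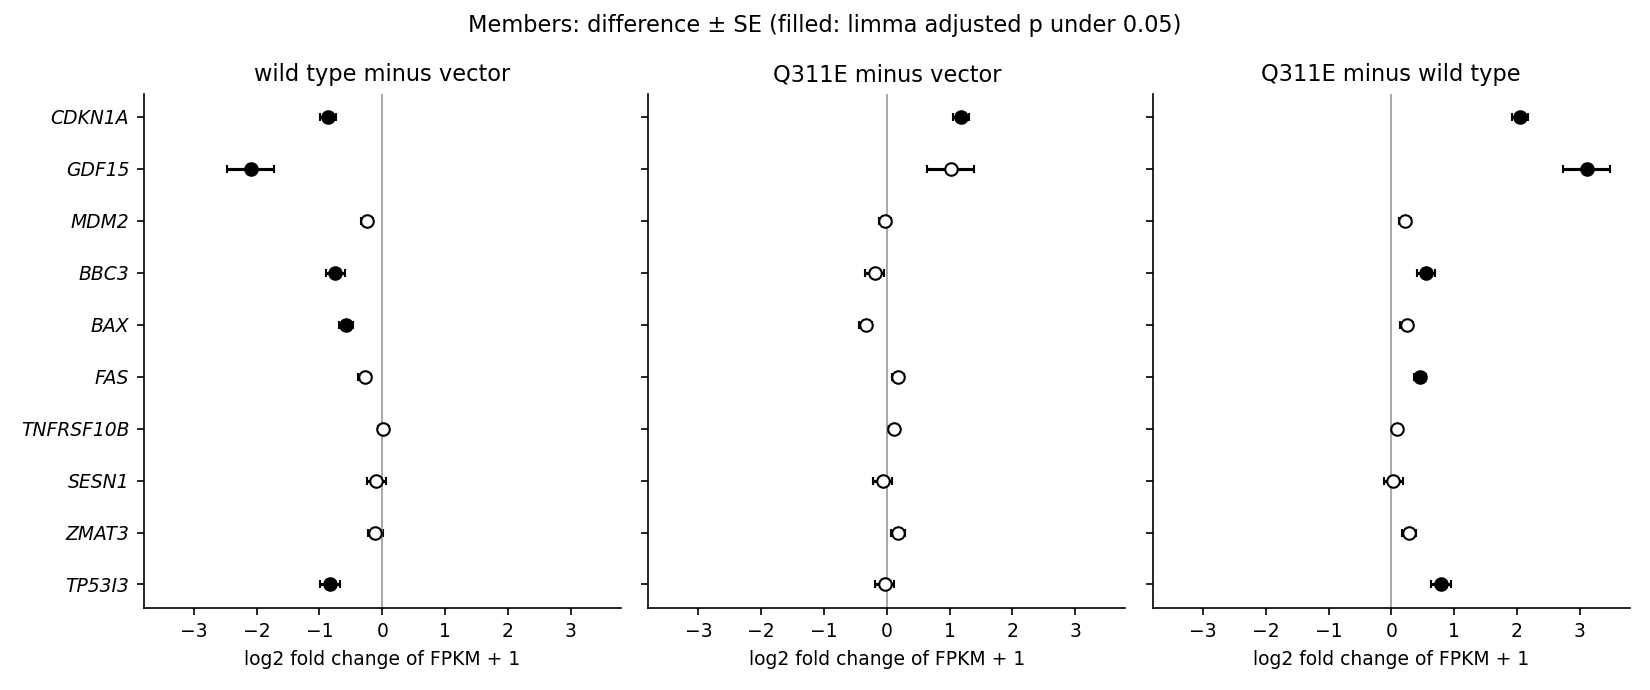
Difference ± SE on the log2(FPKM + 1) scale for the 10 genes in each of the 3 comparisons, with filled points at a limma adjusted p under 0.05. The wild-type line has 5 filled points below 0, Q311E against vector has CDKN1A alone above 0, and Q311E against wild type has 5 above 0.

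Read together, 5 of the 10 genes fell in the wild-type line (CDKN1A, GDF15, BBC3, BAX and TP53I3) and 0 rose. At an unadjusted p under 0.05 the limma counts were 6 and 0, and limma-voom called 4 and 0. Of all 11481 genes tested, 8.76% fell and 3.54% rose in that comparison. The median difference of the 10 was -0.43, against -0.05 over all genes tested. In the Q311E line 1 of the 10 rose against the vector, CDKN1A, and 0 fell (2 and 1 at an unadjusted p under 0.05 in limma, 1 and 0 in limma-voom), where 8.67% of all genes rose and 9.28% fell. The median of the 10 was 0.04, against 0.00 over all genes. Between the expressing lines 5 of the 10 were higher with Q311E (CDKN1A, GDF15, BBC3, FAS and TP53I3) and 0 lower (5 and 0 at an unadjusted p under 0.05 in limma, 4 and 0 in limma-voom), beside 17.5% and 10.1% of all genes. Here the median was 0.37, against 0.05 over all genes. All 10 differences were positive as deposited, as were those of 6259 of the 11481 genes tested. The differences of TNFRSF10B (-0.03) and SESN1 (-0.04) turned negative with libraries scaled to equal medians, where the median over all genes was -0.05.

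The calls rest on few libraries and on the filter. Without the filter on mean FPKM, 0 of the 10 passed for wild type against vector, and CDKN1A and GDF15 alone passed for Q311E against wild type. With equal medians BBC3 (-0.68, limma adjusted p = 0.0530) and BAX (-0.50, 0.0532) lost their calls in wild type against vector. With quantile normalization BBC3 (-0.65, limma adjusted p = 0.0669) and TP53I3 (-0.72, 0.0584) did, and with equal sums TP53I3 (-0.79, 0.0588). The differences stayed near their main values while the adjusted p moved above the threshold. Without vector A, vector B, wild type A or wild type B, 0 of the 10 passed for wild type against vector, with limma adjusted p-values for CDKN1A of 0.0938, 0.164, 0.178 and 0.162. For CDKN1A in Q311E against vector the limma adjusted p was 0.0859 without vector A and 0.0726 without vector B. For Q311E against wild type it was 0.0530 with library A of the wild type left out and 0.0509 with library B left out, with log2 differences of 1.97 and 2.13. The corresponding limma adjusted p-values of GDF15 were 0.0884 and 0.0900. FAS, BBC3 and TP53I3 lost their calls there too, and also without vector A or vector B (limma adjusted p from 0.0662 to 0.0712 over these 3 genes). Without Q311E B, BBC3 lost its call against wild type as well (limma adjusted p = 0.0636), while ZMAT3 (0.0254) and MDM2 (0.0471) gained one. Without Q311E A, BAX gained one (0.0307).

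**Figure D3:**
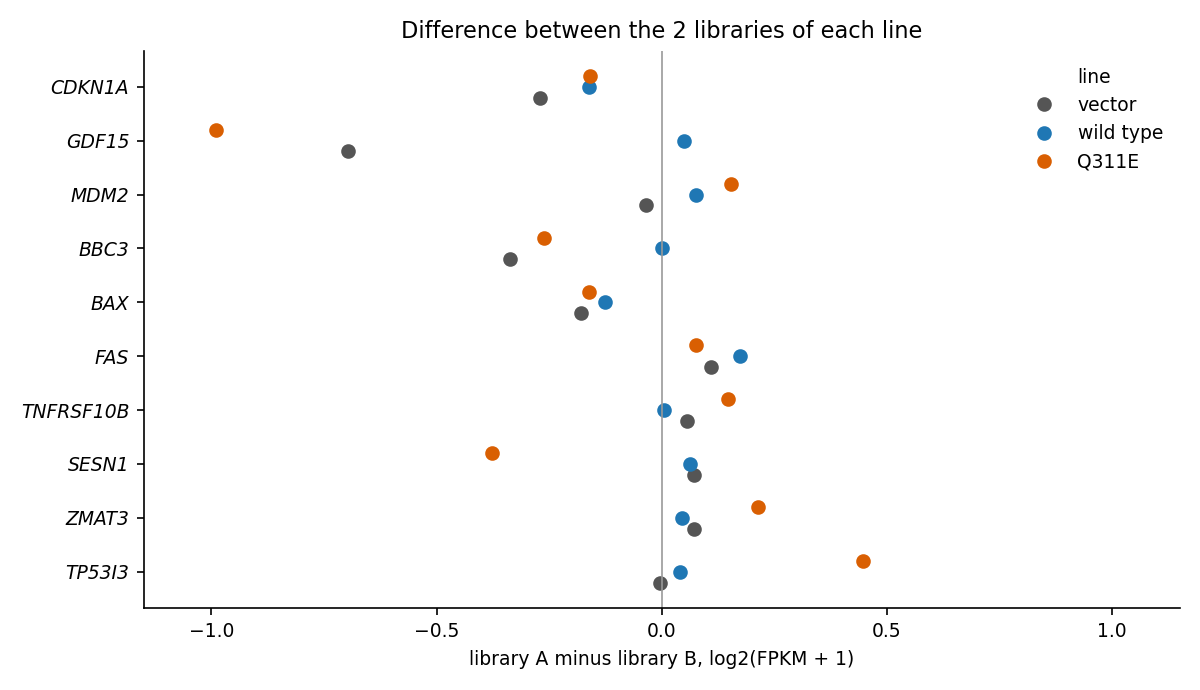
Library A minus library B on the log2(FPKM + 1) scale for each of the 10 genes, with 1 point for each line. GDF15 shows the widest gaps (-0.70 for the vector and -0.99 for Q311E), and the wild-type points lie between -0.16 (CDKN1A) and 0.17 (FAS).

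In level, which FPKM allows to be compared per length, TNFRSF10B and BAX stood highest, with means over the 6 libraries of 32.2 and 27.1 FPKM, above 87.0% and 84.2% of tested genes. They were followed by GDF15 (10.6) and CDKN1A (6.36), and then by BBC3 (5.38) and FAS (5.25), which are neighbours with overlapping values. TP53I3 (3.49), MDM2 (3.15), ZMAT3 (2.10) and SESN1 (1.38) were the lowest, SESN1 lying above 6.9% of tested genes. The order changed with the line: in the wild-type libraries GDF15 stood near SESN1, at 1.39 against 1.30 FPKM, and in the Q311E libraries its mean was 20.9, below those of TNFRSF10B and BAX, though in Q311E B it stood at 28.1 against 27.7 for BAX. Exons of other genes on the opposite strand overlap TNFRSF10B (RHOBTB2, 5.57 FPKM), FAS (ACTA2, 0.893) and TP53I3 (FAM228B, 0.1375). They also overlap MDM2 (CPM, 0.0650) and SESN1 (AL390208.1, 0.0121). Further opposite-strand overlaps, with no deposited value, are DINOL for CDKN1A, AC025423.4 for MDM2 and MIR3190 for BBC3. On the same strand AC025423.2 overlaps MDM2 and MIR3191 overlaps BBC3, also without a value. The use of strand in counting is not given in the sources used here.

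Other p53 targets were taken from lists by role, 59 symbols in all, of which 58 were in the table and 52 passed the filter on low values. In the wild-type line 3 of the 52 rose and 4 fell, with a median of -0.10, beside 3.54% and 8.76% of all genes tested. DRAM1, a lysosomal protein of autophagy, fell (-0.99 ± 0.21, limma adjusted p = 0.0411), as did TRIM22 (-0.63), the sestrin SESN2 (-0.52) and SUSD6 (-0.36). The stress transcription factor ATF3 rose (1.11 ± 0.16, limma adjusted p = 0.0174), as did the kinase PLK3 (0.65) and the receptor NOTCH1 (0.50).

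In the Q311E line against the vector 7 of the 52 rose and 2 fell, with a median of 0.06, where 8.67% of all genes tested rose and 9.28% fell. TRIM22, an antiviral ubiquitin ligase that interferon also induces, rose from 4.83 to 13.3 FPKM (1.30 ± 0.10, limma adjusted p = 0.00468). ATF3 (1.14), PLK3 (0.90) and NOTCH1 (0.69) rose too, so these 3 were higher than the vector in both expressing lines. SESN2 (-0.71) and the F-box protein FBXO22 (-0.44) fell.

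Between the expressing lines 10 of the 52 were higher with Q311E and 2 lower, with a median of 0.16. Over all genes tested 17.5% were higher and 10.1% lower, so the share of higher calls was near the background. The largest rises were those of the antiproliferative BTG1 (2.10 ± 0.40, limma adjusted p = 0.0208), TRIM22 (1.92), DRAM1 (1.77 ± 0.21, limma adjusted p = 0.00774) and ANKRA2 (0.98). BTG1 stood at 16.4 FPKM in Q311E A and 41.3 in Q311E B, both above the 5.22 to 9.62 of the other 4 libraries. The nuclease AEN (-1.20 ± 0.23, limma adjusted p = 0.0207) and FBXO22 (-0.35) were lower. By role, the higher genes were 2 of 8 for arrest, 0 of 5 for feedback (0 also at an unadjusted limma p under 0.05 and by limma-voom), 1 of 11 for cell death, 2 of 7 for repair, 2 of 8 for metabolism and 3 of 13 for other roles, counts too small to set any role apart from the share over all genes. Among the repair genes DDB2, which senses ultraviolet damage, rose by 0.37, and RRM2B, a ribonucleotide reductase subunit, by 0.50.

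**Figure D4:**
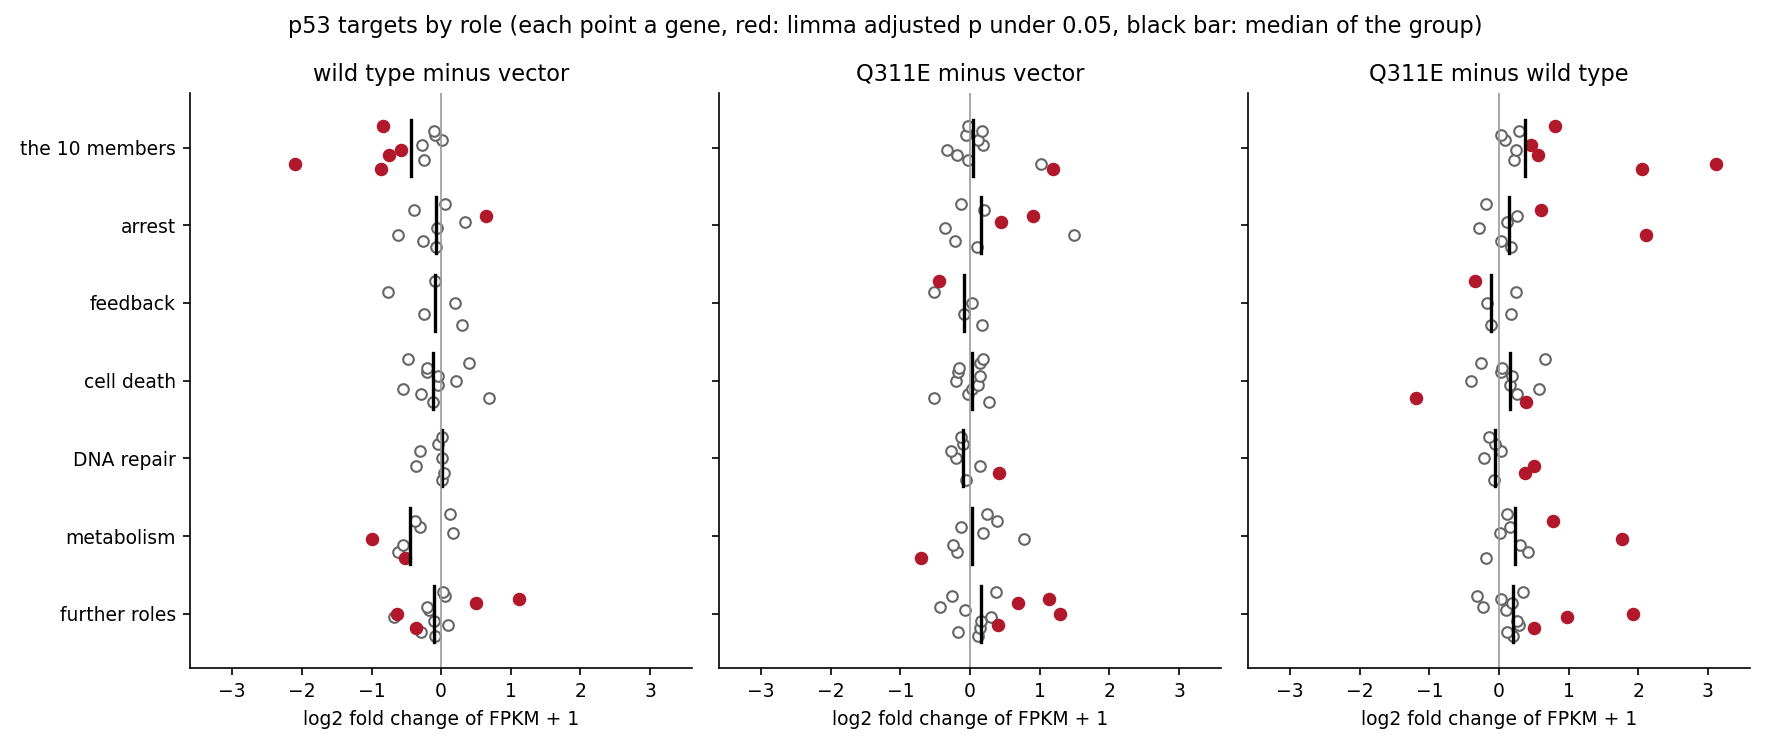
Log2 fold changes of FPKM + 1 for the 10 members and for the other p53 targets by role, 1 point a gene, red at a limma adjusted p under 0.05, with a black bar at each group's median. In the wild-type line the members' median is -0.43 and the metabolic genes' -0.45, while the feedback genes' median lies at -0.09.

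Other members of the p53 family and its regulators were followed as a further list. TP63, which marks basal squamous cells, stood at 30.2 and 29.8 FPKM in the vector, 14.8 and 14.5 in the wild-type and 19.8 and 32.5 in the Q311E libraries. It fell in the wild-type line (-0.99 ± 0.22, limma adjusted p = 0.0448), and the Q311E pair spread across the vector values. TP73 stood at 1.24 and 2.05 FPKM with the vector, at 0.298 and 0.388 with the wild type, and at 0.389 in Q311E A against 5.80 in Q311E B, and it passed in none of the 3 comparisons (limma adjusted p from 0.247 to 0.844). MDM4, the MDM2 relative that masks p53, differed by 0.45 ± 0.13 between Q311E and wild type without passing (limma adjusted p = 0.0508). The p53 kinase HIPK2 fell in the Q311E line against vector (-0.91) and wild type (-0.66). USP7, also on this list, was lower with Q311E than with wild type (-0.50, limma adjusted p = 0.0264). Of the 15 tested genes of the list, 1 was higher and 1 lower in Q311E against vector. Over all genes tested 8.67% rose and 9.28% fell in that comparison. Against wild type 1 was higher and 2 lower, beside 17.5% and 10.1% of all genes tested. In the wild-type line TP63 was the 1 gene of this list that fell, and EP300, an acetyltransferase coactivator of p53, the 1 that rose (0.55, limma adjusted p = 0.0445). Of all genes tested 8.76% fell and 3.54% rose there.

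Genes that act with CDKN1A on the cell cycle were followed as a list of 16 tested genes: CDK inhibitors, cyclins, CDKs, RB1 and PCNA. The INK4 inhibitor CDKN2B rose in the Q311E line, from 3.42 to 7.03 FPKM (0.86 ± 0.10, limma adjusted p = 0.00974), and was 1.31 above the wild type. PCNA fell from 302 to 195 FPKM (-0.64 ± 0.12, limma adjusted p = 0.0257) and CDK4 by 0.44. In all 1 rose and 2 fell in Q311E against vector, and 0 rose and 1 fell, CCND2 (-0.59), in wild type against vector. Over all genes tested 8.67% rose and 9.28% fell in the former comparison, and 3.54% rose and 8.76% fell in the latter. Against wild type, 5 of the 16 were higher in the Q311E line and 2 lower, beside 17.5% and 10.1% of all genes tested. The higher were CDKN2B, CDKN2D (0.56), CDKN2A (0.54), CDKN1B (0.47) and the cyclin CCND2 (0.39). PCNA (-0.77) and the cyclin CCNE1 (-0.48) were the lower.

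BAX and BBC3 belong to the BCL2 family, of which 11 further genes were tested. In the wild-type line 5 of them fell and 0 rose, with a median of -0.29, beside 8.76% and 3.54% of all genes tested. BCL2A1, which blocks apoptosis, fell by 1.66 and the BH3-only gene BAD by 1.21 (from 53.9 to 22.8 FPKM, limma adjusted p = 0.00514), and BAK1, the other pore former, fell by 0.77. In the Q311E line 1 rose and 4 fell, with a median of 0.02, beside 8.67% and 9.28% of all genes tested. BCL2L11, which encodes the BH3-only protein BIM, rose from 3.003 to 8.002 FPKM (1.17 ± 0.09, limma adjusted p = 0.00507). The 4 that fell were BAD (-1.01), BIK (-0.59), BID (-0.58) and BAK1 (-0.54). Against wild type, BCL2A1 (1.94), BCL2L11 (1.05) and BOK (0.37) were higher and 0 genes lower, beside 17.5% and 10.1% of all genes tested.

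The partners of FAS and TNFRSF10B included 10 tested genes of death receptor signalling. In the wild-type line 0 of the 10 passed in limma, with 3 lower at an unadjusted p under 0.05 and 1 lower by limma-voom. By limma 8.76% of all genes tested fell there and 3.54% rose. The median difference of the 10 was -0.16. TNFSF10, the TRAIL ligand of TNFRSF10B, rose in the Q311E line from 14.7 to 57.1 FPKM (1.83 ± 0.31, limma adjusted p = 0.0194), with 39.1 FPKM in Q311E A and 75.2 in Q311E B. In Q311E against vector 4 of the 10 rose, with CASP10 (0.78) and the inhibitor BIRC3 (0.66) next in size, and 1 fell, the adaptor FADD (-0.46). Over all genes tested 8.67% rose and 9.28% fell. Against wild type 6 rose and 0 fell, beside 17.5% and 10.1% of all genes tested. Among the 6 were TNFSF10 (3.02), CASP10 (1.36) and CFLAR (1.04), an inhibitor of caspase-8.

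GDF15, BBC3 and TNFRSF10B also answer to ATF4 and CHOP, and 10 genes of that response were tested. In the wild-type line 6 fell and 2 rose, beside 8.76% and 3.54% of all genes tested. DDIT4 fell by 2.83 ± 0.60 (limma adjusted p = 0.0411), CHAC1 by 1.44, TRIB3 by 0.81 and ATF4 itself by 0.51 (limma adjusted p = 0.0230). In the Q311E line 4 fell and 3 rose against the vector, beside 9.28% and 8.67% of all genes tested. TRIB3 (-1.50), CHAC1 (-1.41), SESN2 (-0.71) and ATF4 (-0.39) fell, and ATF3 (1.14), PPP1R15A (0.84) and VLDLR (0.73) rose. ATF4 averaged 182.0, 127.2 and 138.3 FPKM in the vector, wild-type and Q311E lines. DDIT3, which encodes CHOP, had means of 9.86, 5.45 and 11.04 FPKM in the same order. It fell by 0.75 in the wild-type line (limma adjusted p = 0.0160) and was 0.90 higher with Q311E than with wild type (limma adjusted p = 0.00705). DDIT4, at 50.2 FPKM in Q311E A and 189.7 in Q311E B, was 2.48 higher than in wild type (limma adjusted p = 0.0349). Between the expressing lines 4 of the 10 were higher with Q311E and 1 lower, TRIB3 (-0.69 ± 0.18, limma adjusted p = 0.0438). The shares over all genes tested were 17.5% and 10.1%.

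The genes with the profile most like that of CDKN1A over the 6 libraries were sought among all tested genes by the root mean square difference of centred log2(FPKM + 1) values. They were TUSC3 (0.080), MUC20P1 (0.082), IGFL1P1 (0.093), SLC2A12 (0.094) and LSS (0.103). LSS, the lanosterol synthase of cholesterol synthesis, had 29.6, 15.2 and 62.0 FPKM in the vector, wild-type and Q311E lines. For GDF15 the nearest were C15orf48 (0.241), BHLHE40 (0.281), FGFBP1 (0.317), INSIG1 (0.326) and SCNN1A (0.355). C15orf48 had 41.2, 10.2 and 96.4 FPKM in the same order. These distances describe 6 libraries of 3 lines, and many genes ordered in the same way across the lines would lie close.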

How the data were processed

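The authors deposited FPKM values for 30178 human Ensembl gene IDs in 6 libraries (2 for each of 3 lines). CASAVA, mm8 and mm9 (the latter mouse genome builds) are named, without a role, per the submitters' processing notes. For the aligner, counter, annotation and strand use, the sources used here give nothing. Gene names matched 29993 IDs, and positions are those of GENCODE 29 (GRCh38). Whole reads (tolerance 0.001) were recovered for 99.51% of genes, by the GENCODE 29 exon length or the nearest length from 0.25 to 4 times it that gave whole reads. For 4 of the 10 members the length was so fitted.

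Differences were tested with limma 3.58.1 (R 4.3.3) on log2(FPKM + 1), a scale that understates changes of low genes. All 3 groups entered 1 fit with a variance trend, 3 residual degrees of freedom and the 11481 genes whose mean FPKM reached 1. Calls needed an adjusted p (two-sided, Benjamini-Hochberg over all genes tested) under 0.05. The fit was checked on simulated data. The members and lists were chosen with earlier results of these data known, and no list was tested as a set.

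Besides the members, genes were named by rule: TP63, TP73, MDM4 and MB21D2, up to 4 called rises and 4 called falls of the other p53 targets per comparison, up to 3 called genes per further list and comparison, and 5 nearest profiles each for CDKN1A and GDF15. DDB2, RRM2B, CCNE1, CDKN2A, CDKN1B, BID, FADD, ATF4, DDIT3, VLDLR, PPP1R15A and marker levels were added after their values were seen. 1 further gene of the rule is not reported here. There were 16 alternative settings, among them limma-voom on recovered reads. Figures used matplotlib 3.10.9.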

Additional observations from a re-analysis of the deposited data

How the results depend on the processing

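Each line had 2 libraries, and counts of called genes moved with the filter, the fit and each library left out. A lone library in a group was assumed to vary like the other groups. For wild type against vector, limma called 1412 genes, 5 members and 7 other p53 targets. Without the filter on mean FPKM these were 393, 0 and 1. Fitted on only the 2 groups compared they were 5273, 7 and 28, and with a spread for each group 5508, 7 and 28. Leaving out 1 library at a time gave 7 to 5238 genes, 0 to 7 members and 0 to 28 other targets. Equal medians and quantile normalization left 3 members each. For Q311E against vector the main counts were 2061, 1 and 9. Without the filter 1210 genes and 5 other targets were called, with only the 2 groups compared 262 genes and 1 other target, and with a spread for each group 868 genes. Leaving out 1 library gave 3 to 5662 genes, 0 to 2 members and 0 to 29 other targets. For Q311E against wild type the main counts were 3162, 5 and 12. Without the filter they were 1608, 2 and 4, with only the 2 groups compared 973, 2 and 2, and with a spread for each group 2001 genes and 3 members. Quantile normalization left 2 members. Leaving out 1 library gave 0 to 6939 genes, 0 to 6 members and 0 to 29 other targets. The share of higher calls went from 28.8% to 47.8% (equal medians) and 43.9% (quantile normalization) for wild type against vector. For Q311E against vector it went from 48.3% to 57.8% (equal sums) and 40.6% (equal medians). For Q311E against wild type it went from 63.4% to 40.0% (equal medians) and 44.7% (quantile normalization), where the median of all genes moved from 0.05 to -0.07.

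The labels do not say what the letters A and B stand for. The difference A minus B correlated across genes at 0.387 between vector and Q311E, and at -0.026 and -0.006 between these 2 and the wild type. With the letter as a replicate block, 1299, 1942 and 3264 genes were called for wild type against vector, Q311E against vector and Q311E against wild type, with 5, 2 and 5 members and 7, 9 and 11 other targets. Which library correlated best with its own letter could not be asked with 2 letters.

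Over the 468 comparisons of a member under another setting, 379 kept direction and side of the threshold, 64 lost and 14 gained a call, and 11 changed sign. The sign changes were small values. With quantile normalization they were SESN1 (0.0457) and ZMAT3 (0.0069) for wild type against vector and SESN1 (-0.198) for Q311E against wild type. With equal medians they were TNFRSF10B (-0.0295) and SESN1 (-0.0378) for Q311E against wild type. The others came from leaving out 1 library, which spread TNFRSF10B from -0.0082 to 0.0465 for wild type against vector. For Q311E against vector it spread MDM2 from -0.105 to 0.0489, SESN1 from -0.252 to 0.124 and TP53I3 from -0.258 to 0.187. For Q311E against wild type it spread SESN1 from -0.158 to 0.218, with -0.00047 without wild type B. The causes were not tested. The planned edgeR fit was not run, since the deposited unit is FPKM. GDF15 in the wild-type line rested on 60 and 68 reads, the lowest of the members, TP53I3 there on 95 and 106, and SESN1 on 116 to 188, which sets their counting error.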
